A study of Mus musculus with 11 samples.

Results

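Nicotinic acetylcholine receptor subunits were described in whole mouse brain through every probe set annotated to Chrna1, Chrna6, Chrna7, Chrnb1, Chrnb2, Chrnd, Chrne or Chrng. These 8 genes had 11 of the 12488 probe sets on the array: 3 for Chrne, 2 for Chrng and 1 for each of the others, and each is shown separately.

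The study compared mice homozygous null for the β4 nicotinic subunit, encoded by Chrnb4, with wild-type littermates. RNA of 1 whole brain was hybridised per array. There were 5 null mice (2 males and 3 females, 7 to 9 weeks old) and 6 wild-type mice (4 males and 2 females, 6 to 9 weeks old). All were C57BL/6J and untreated, and the labels do not say how the null allele was made. All 5 null mice and 3 wild-type mice carry mouse numbers beginning with B4. The other 3 wild-type mice, all 6 weeks old, carry numbers beginning with LT. No probe set is named for Chrnb4, nor for Chrna3, Chrna4 or Chrna5, so no value of the targeted gene tests the genotype labels. Replicate numbers below name brains in the order of deposit only, and p-values measure the spread between these mice.

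Nicotinic receptors are pentameric cation channels opened by acetylcholine. In neurons, α7 subunits can form receptors on their own, while α6, β2 and β4 assemble with other subunits. The muscle receptor contains α1, β1 and δ together with γ in the fetus or ε in the adult, and the γ to ε exchange marks maturation of the neuromuscular junction. In muscle, subunit genes are driven by myogenic factors at E-boxes, and the ε gene in synaptic nuclei by ETS factors at an N-box.

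The members lie on 6 chromosomes of mouse assembly GRCm38.p6, according to RefSeq. Chrnd (chr1:87190597-87200070) and Chrng (chr1:87205811-87211835) are neighbours with 5740 bases between them. Chrnb1 (chr11:69784036-69795966) and Chrne (chr11:70614883-70619213) share another chromosome. Chrna1 is at chr2:73563281-73580338, Chrnb2 at chr3:89753448-89764632, Chrna7 at chr7:63098692-63212526 and Chrna6 at chr8:27403212-27413944. Chrnb4 lies apart from all of them, at chr9:55028154-55048953. The position of each probe set within its gene was not given in the sources used here.

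The promoters of Chrna1, Chrng and Chrne are printed because the widest genotype differences below were those of muscle-type subunits, and that of Chrna7 as the neuronal subunit whose probe set passed the brightness mark on every array. Each run is the 250 bases before the start used in the RefSeq promoter table, 5′ to 3′ on the gene's strand, and distances are counted from that start. For Chrne this start lies within the gene bounds given above, so the last 19 bases of its window lie inside them. Capitals mark the myogenic E-box CAGCTG, which reads the same on both strands, and the N-box CCGGAA, searched on both strands; the motifs cannot overlap here.
Chrna1 (chr2:73580339-73580588, minus strand): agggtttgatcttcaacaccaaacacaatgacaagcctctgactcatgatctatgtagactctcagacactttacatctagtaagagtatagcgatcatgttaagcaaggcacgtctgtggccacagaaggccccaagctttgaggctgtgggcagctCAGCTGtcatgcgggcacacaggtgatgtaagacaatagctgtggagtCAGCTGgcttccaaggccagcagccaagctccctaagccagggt
Chrng (chr1:87205561-87205810, plus strand): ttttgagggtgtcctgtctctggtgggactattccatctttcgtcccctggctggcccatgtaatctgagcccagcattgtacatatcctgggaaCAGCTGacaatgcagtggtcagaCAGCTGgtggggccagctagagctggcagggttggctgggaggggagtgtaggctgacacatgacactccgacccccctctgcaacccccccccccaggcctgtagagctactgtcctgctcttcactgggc
Chrne (chr11:70619195-70619444, minus strand): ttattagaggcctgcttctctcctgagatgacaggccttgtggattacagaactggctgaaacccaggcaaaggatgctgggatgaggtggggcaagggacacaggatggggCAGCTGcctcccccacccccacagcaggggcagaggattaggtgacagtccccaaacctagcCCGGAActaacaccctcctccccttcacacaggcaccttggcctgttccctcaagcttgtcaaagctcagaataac
Chrna7 (chr7:63212527-63212776, minus strand): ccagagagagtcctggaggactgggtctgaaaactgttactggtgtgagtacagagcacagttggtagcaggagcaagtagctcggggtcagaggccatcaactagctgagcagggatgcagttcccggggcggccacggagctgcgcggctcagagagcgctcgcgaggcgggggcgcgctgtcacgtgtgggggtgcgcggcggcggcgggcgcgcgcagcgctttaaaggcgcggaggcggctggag
The Chrna1 window held 2 E-boxes, beginning 92 and 44 bases before the start. That of Chrng held 2, at 155 and 132 bases. That of Chrne held 1 E-box at 138 bases and 1 N-box at 76 bases. Neither motif occurred in the windows of Chrna7, Chrnb1 or Chrnb2. Of 32851 promoter windows of the same length, 13.0% held at least 1 E-box, 1.26% held 2 or more, and 12.03% held an N-box. A match of letters is not a measured binding site. Windows were found for 6 of the 8 genes.

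Values are MAS5 signals, one linear intensity per probe set and array. A signal shows how bright a probe set was, so signals of different probe sets are not set against each other. The 40th percentile of mean log2 signal over the table, a signal of 25.8, served as a mark of low brightness. Only 3 of the 11 member probe sets had a mean at or above it: those of Chrna7, Chrne 92967_r_at and Chrng 95639_at. The first pair stood at or above 25.8 on all 11 arrays and Chrng 95639_at on 7. Chrna6 reached it on 6 arrays, Chrnd on 5, Chrne 92965_at and Chrng 161215_at on 2 each and Chrnb2 on 1. Chrna1, Chrnb1 and Chrne 92966_g_at reached it on 0 arrays. Of all 12422 probe sets that are not controls, 49.9% reached it on all arrays. Detection calls were not used here, so whether a low signal lay above background was not tested.

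RNA measures differed between the groups before any subunit was considered. The 3′ to 5′ signal ratio of Gapdh, a control for RNA integrity and labelling, averaged 4.24 ± 0.862 (SD, n = 6) over wild-type brains, against 2.04 ± 1.21 (SD, n = 5) over null brains (two-sided exact permutation p = 0.00866). The male null brains stood apart at 0.859 and 0.798, and their median array signals of 58.3 and 56.3 exceeded the range of 43.6 to 49.75 in the other 9. Without these brains the null ratio was 2.84 ± 0.698 (SD, n = 3; exact p = 0.0476). The genotype differences of named genes below are therefore given with and without the male null brains. Fits with the Gapdh ratio as a covariate are given for some genes. The ratio differed with genotype, so those fits cannot tell its part in the results from that of genotype, and its own effect was not tested.

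**Figure D1:**
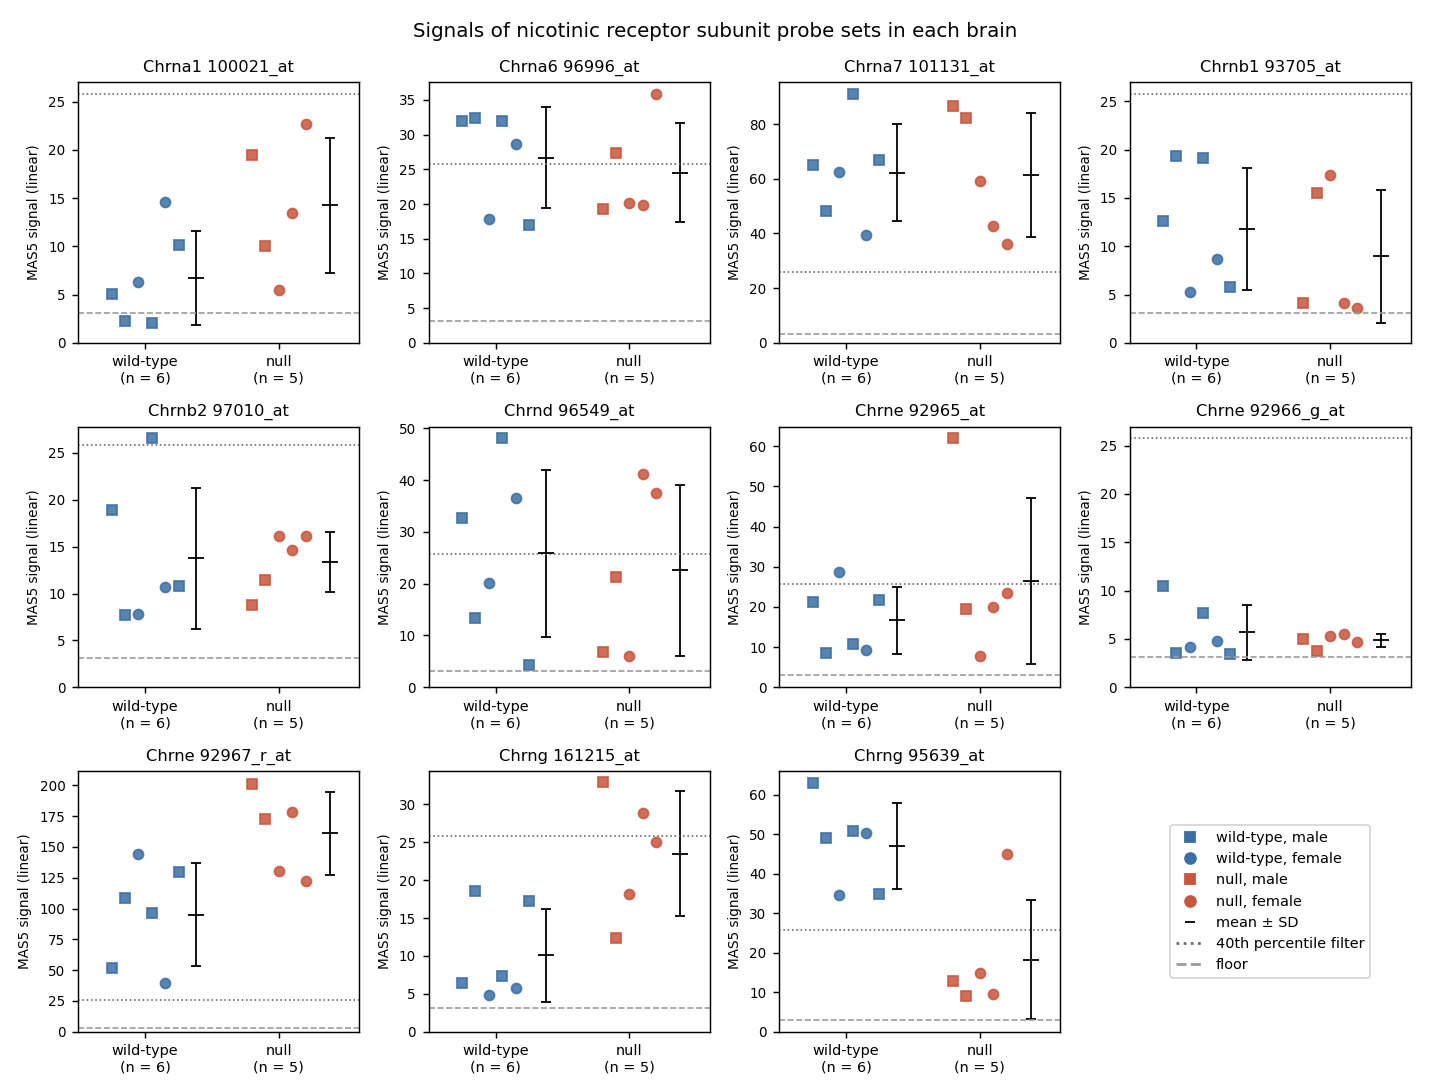
MAS5 signal (linear y axis, from 0, scaled to each panel) of the 11 subunit probe sets in 6 wild-type and 5 null brains; squares are males, circles females, black marks mean ± SD, the dotted line the 40th percentile filter at 25.8 and the dashed line the floor at 3.1. In Chrng 95639_at 4 of 5 null brains lie below every wild-type brain, and in every panel the groups overlap.

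No subunit probe set differed between null and wild-type brains at an adjusted p under 0.05. The genotype difference was null minus wild-type on the log2 scale with sex as a covariate (limma, Benjamini-Hochberg adjustment over 12422 probe sets). It was above 0 for 6 of the 11 and below 0 for 5, with a median of 0.09 beside 0.04 over all probe sets; 54% of all probe sets were above 0. The count of 0 members called stands beside 0% of all probe sets. At an unadjusted p under 0.05 there were 3 members, 2 higher and 1 lower in null brains, beside 16.9% of all probe sets (10.3% higher and 6.67% lower). These 3 were both Chrng probe sets and Chrne 92967_r_at. Without the male null brains 1 member had an unadjusted p under 0.05, beside 4.47% of all. In no member were the genotypes apart, beside 0.821% of all probe sets.

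Chrng encodes the γ subunit of fetal muscle receptors, and its probe sets differed in opposite directions. Chrng 95639_at gave 62.9, 48.9, 34.6, 50.7, 50.2 and 34.8 in wild-type brains 1 to 6. In null brains 1 to 5 it gave 12.9, 9.1, 14.9, 9.5 and 45.0. Thus 4 null brains, of both sexes, lay below every wild-type brain, and null 5 lay among the wild-type values. The means were 47.0 ± 10.8 (SD, n = 6) and 18.3 ± 15.1 (SD, n = 5), and the difference was -1.69 (SE 0.43, 95% interval -2.64 to -0.74, limma adjusted p = 0.190). Without the male null brains it was -1.17 (interval -2.61 to 0.27, adjusted p = 1), and with the Gapdh ratio as a covariate -0.57. Within males it was -2.16 (SE 0.57) and within females -1.17 (SE 0.60), the latter the same comparison as without the male null brains.

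Chrng 161215_at gave 6.4, 18.6, 4.9, 7.4, 5.8 and 17.3 in wild-type brains 1 to 6 and 32.9, 12.4, 18.2, 28.9 and 25.0 in null brains 1 to 5. Here 3 null brains exceeded every wild-type brain and all 5 lay above the wild-type median. The means were 10.1 ± 6.17 (SD, n = 6) and 23.5 ± 8.23 (SD, n = 5). The difference was 1.47 (SE 0.44, interval 0.48 to 2.46, limma adjusted p = 0.20), and 2.15 without the male null brains (interval 0.89 to 3.41, adjusted p = 0.870). All 6 wild-type values lay under the brightness mark of 25.8.

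Over the 9 brains other than the male null, the log2 values of the Chrng pair had Pearson's r = -0.57 and Spearman's rho = -0.43 (permutation p = 0.120 and 0.249, Benjamini-Hochberg adjusted over 4 pairs 0.479 and 0.578). Leaving out the 2 brains farthest from the median gave r = -0.63, and all 11 gave -0.55. The pair gave opposite genotype differences, neither of which passed adjustment. The 9 brains hold both genotypes, so r takes in those differences, and no r was taken within a genotype. The same holds for the Chrne pairs below.

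**Figure D2:**
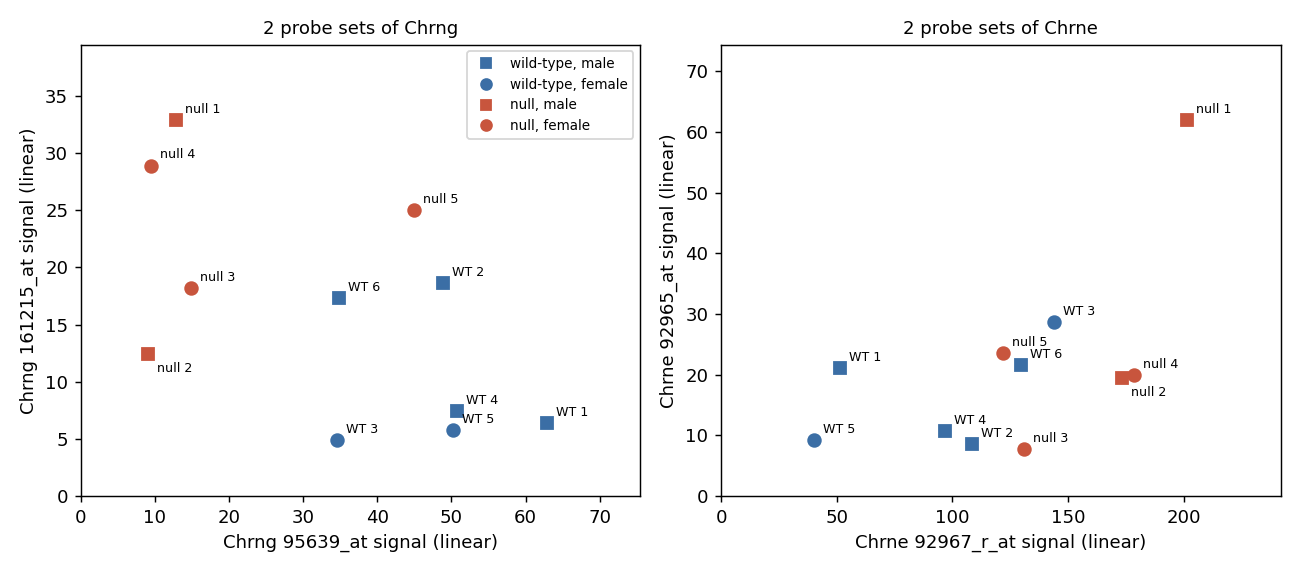
Signals (linear axes) of 2 probe sets of Chrng, left, and 2 of Chrne, right; each labelled point is 1 brain, WT stands for wild-type. On the left the null brains lie at low 95639_at values except null 5 at 45.0; on the right null 1 stands alone at 62.0 on the y axis.

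Chrne encodes the ε subunit of adult muscle receptors and had 3 probe sets. Chrne 92967_r_at gave 51.6, 108.6, 144, 96.6, 40 and 129.5 in wild-type brains 1 to 6 and 201.5, 173.1, 130.9, 178.6 and 122 in null brains 1 to 5. Again 3 null brains exceeded every wild-type brain and all 5 lay above the wild-type median. The means were 95.05 ± 41.7 (SD, n = 6) and 161.2 ± 33.6 (SD, n = 5). The difference was 0.97 (SE 0.35, interval 0.19 to 1.75, limma adjusted p = 0.234), and 0.90 without the male null brains (interval -0.41 to 2.22). It was 1.03 (SE 0.50) within males and 0.90 (SE 0.53) within females, the latter the same comparison as without the male null brains.

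The other Chrne probe sets gave different values. Chrne 92965_at gave 8.5 to 28.7 in wild-type and 7.7 to 62.0 in null brains, where null 1 was the highest and the others gave at most 23.5. Its difference was 0.63 (SE 0.55, limma adjusted p = 0.585), and -0.08 without the male null brains. Chrne 92966_g_at gave 3.4 to 10.5 in wild-type and 3.8 to 5.5 in null brains, close to the floor of 3.1, with a difference of -0.09 (SE 0.32, adjusted p = 0.916) and 0.20 without the male null brains. Over the 9 brains, r was 0.30 (rho 0.27) for 92965_at with 92967_r_at, 0.02 (rho -0.22) for 92965_at with 92966_g_at and -0.43 (rho -0.25) for 92966_g_at with 92967_r_at. Their adjusted permutation p-values were 0.572, 0.948 and 0.489 for r and 0.578 for each rho. Without the 2 farthest brains these r were 0.61, -0.24 and 0.01.

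The remaining muscle-type subunits were dim. Chrna1 encodes the α subunit of muscle receptors, which carries the principal part of the acetylcholine site. It gave 5.1, 2.3, 6.3, 2, 14.6 and 10.1 in wild-type brains, the second and the fourth under the floor, and 19.5, 10, 5.5, 13.5 and 22.7 in null brains. Only 2 null brains exceeded every wild-type brain. The difference was 0.97 (SE 0.52, interval -0.19 to 2.13, limma adjusted p = 0.368), 0.31 without the male null brains and 0.11 with the Gapdh ratio as a covariate. Chrnd, for δ, ranged from 4.3 to 48.1 in wild-type and from 6.0 to 41.2 in null brains, which overlap over most of their span (-0.44, SE 0.76, adjusted p = 0.806; -0.37 without the male null brains). Chrnb1, for β1, ranged from 5.3 to 19.4 and from 3.6 to 17.4, and 3 null brains lay below every wild-type brain (-0.41, SE 0.56, adjusted p = 0.753; -0.10 without the male null brains).

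The skeletal muscle markers were read beside these subunits, since whole brain should hold no muscle fibres. All 17 listed genes were measured, 11 with a mean at or above 25.8. The fast myosin Myh2 was at or under the floor on all 11 arrays, the fast troponin Tnni2 on 7 and the myosin Myh1 on 6. Skeletal actin Acta1 gave 62.5 to 98.3 and creatine kinase Ckm 23.3 to 67.6. Myod1 gave 45.3 to 79.3 and Myog 20.7 to 62.9; both are myogenic factors that act at E-boxes. The summed signal was 2002 to 3091 in wild-type and 2227 to 2668 in null brains. A sum weighs bright probe sets most, and Pvalb, which brain interneurons also express, alone gave 1404 to 2259. The sum is therefore no reading of muscle RNA. By genotype 0 of 17 passed, 0 had an unadjusted p under 0.05, and the median difference was 0 (all probe sets 0.04). Of the 11, the highest differences were those of Atp2a1, the sarcoplasmic calcium pump, at 0.58 (0.47 without the male null brains), and Myh4 at 0.54 (-0.03). The lowest were Ckm at -0.50 (-0.55) and Myog at -0.23 (-0.22). Of 9 neuronal markers 8 were measured, each with a mean at or above the mark of 25.8. In whole brain, fewer cells of a type and less RNA per cell cannot be told apart.

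Among neuronal subunits, Chrna7 encodes α7, the homomeric receptor of high calcium permeability. It gave 64.9, 48.3, 62.6, 90.9, 39.6 and 67.0 in wild-type brains 1 to 6 and 86.5, 82.2, 59.3, 42.6 and 36.2 in null brains 1 to 5. The means by genotype were 62.2 ± 17.7 (SD, n = 6) and 61.4 ± 22.7 (SD, n = 5), and the ranges overlapped almost wholly. The difference was 0.12 (SE 0.23, interval -0.39 to 0.63, limma adjusted p = 0.836), and -0.14 without the male null brains. The interval thus left room for a change of up to about 0.63 log2 in null brains.

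By sex, Chrna7 averaged 73.3 ± 16.1 (SD, n = 6) over the males, against 48.06 ± 12.04 (SD, n = 5) over the females. Of 6 males 5 exceeded every female, and of 5 females 3 lay below every male. With genotype in the model, the female minus male difference was -0.64 (SE 0.23, interval -1.15 to -0.13) and did not pass adjustment (limma adjusted p = 0.375). Without the male null brains it was -0.41 (interval -1.17 to 0.35), a value set by the wild-type brains alone. Chrna7 was the 1 member of 11 with an unadjusted p under 0.05 by sex, beside 10.9% of all probe sets, and 0 members were called beside 0.0242%. The 3 probe sets called by sex were Eif2s3y, Uty and the unnamed 103842_at, all lower in females. The other members' sex differences ran from -0.64 for Chrnb1 to 0.72 for Chrnd, with adjusted p-values of 0.697 or more.

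Chrna6 encodes α6, which in brain is concentrated in dopaminergic and retinal neurons. It gave 17.0 to 32.4 in wild-type (median 30.3) and 19.3 to 35.9 in null brains (median 20.2). The means were 26.65 ± 7.26 (SD, n = 6) and 24.52 ± 7.15 (SD, n = 5), and the difference was -0.08 (SE 0.29, interval -0.74 to 0.57, limma adjusted p = 0.917), and 0.11 without the male null brains. Chrnb2 encodes β2, the partner of α4 in the most widespread high-affinity brain receptor. It gave 18.9, 7.7, 7.8, 26.6, 10.7 and 10.8 in wild-type and 8.8, 11.4, 16.1, 14.6 and 16.1 in null brains. The wild-type values spanned the null ones on both sides. The difference was 0.09 (SE 0.39, interval -0.77 to 0.96, limma adjusted p = 0.934). Without the male null brains it was 0.77 (interval -0.46 to 2.002, adjusted p = 1). With the Gapdh ratio as a covariate it was 1.24 (interval 0.08 to 2.40, limma adjusted p = 0.896).

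**Figure D3:**
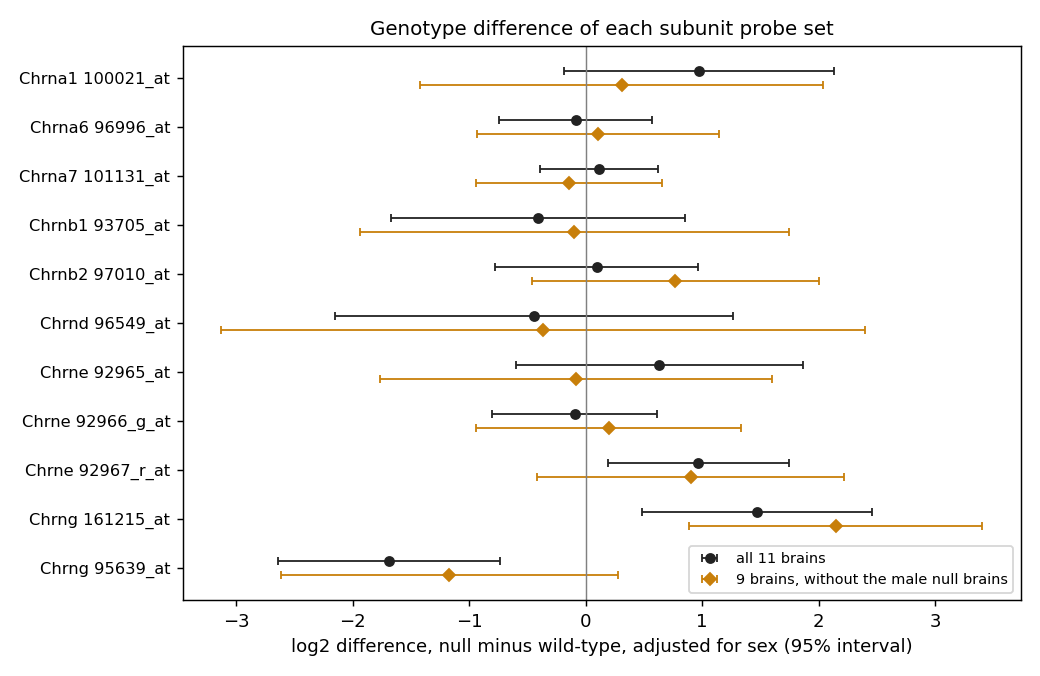
Log2 difference, null minus wild-type adjusted for sex (x axis), of each subunit probe set with its 95% interval, over all 11 brains (black circles) and over the 9 without the male null brains (orange diamonds). Over all brains 3 intervals leave out 0, those of both Chrng probe sets and Chrne 92967_r_at. Over 9 brains, where females alone set the difference, that of Chrng 161215_at does.

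The order of group means was read within each of the 3 brightest member probe sets. Chrna7 was highest in null males at 84.35 ± 3.04 (SD, n = 2), then wild-type males at 67.8 ± 17.5 (SD, n = 4), wild-type females at 51.1 ± 16.3 (SD, n = 2) and null females at 46.0 ± 11.9 (SD, n = 3). Each neighbouring pair lay within the larger SD of its groups. Chrne 92967_r_at ran from null males at 187.3 ± 20.1 (SD, n = 2) through null females at 143.8 ± 30.4 (SD, n = 3) to wild-type males at 96.6 ± 32.9 (SD, n = 4) and wild-type females at 92.0 ± 73.5 (SD, n = 2). The null groups differed by more than either SD, as did null females and wild-type males. Chrng 95639_at ran from wild-type males at 49.3 ± 11.5 (SD, n = 4) and wild-type females at 42.4 ± 11.03 (SD, n = 2) to null females at 23.1 ± 19.1 (SD, n = 3) and null males at 11 ± 2.69 (SD, n = 2). Only wild-type and null females in that order lay further apart than either SD.

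**Figure D4:**
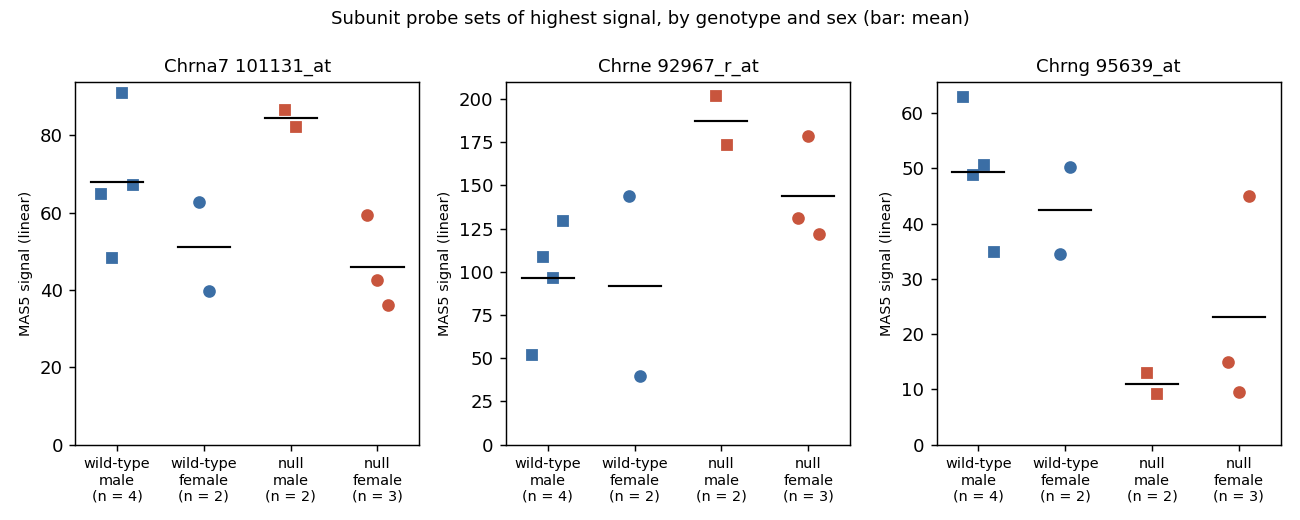
MAS5 signal (linear y axis, from 0) of Chrna7, Chrne 92967_r_at and Chrng 95639_at in the 4 groups of genotype and sex; points are brains and bars group means. The means of Chrna7 are 84.35 and 67.8 in null and wild-type males and 46.0 and 51.1 in null and wild-type females.

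The genotype difference of the subunits was not shown to depend on sex. The interaction is the null minus wild-type difference of females less that of males. It was called for 0 of 11 members, with 0 at an unadjusted p under 0.05, beside 7.49% and 22% of all probe sets. The lowest limma adjusted p was 0.331, for Chrnb2, with -0.51 in males and 0.77 in females. Chrna7 gave -0.50 (SE 0.44, adjusted p = 0.596), with 0.35 in males and -0.14 in females. Chrng 95639_at gave 0.99 (SE 0.83, adjusted p = 0.565) and Chrne 92967_r_at -0.13 (SE 0.73, adjusted p = 0.956).

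The direction of the genotype difference was the same under all alternatives for 4 members: both Chrng probe sets, Chrne 92967_r_at and Chrna1. Leaving out each brain in turn gave -2.01 to -1.46 for Chrng 95639_at, 1.28 to 1.91 for 161215_at, 0.65 to 1.32 for Chrne 92967_r_at and 0.62 to 1.33 for Chrna1. With the B4 mice alone these differences were -1.73, 1.48, 0.74 and 1.43. The other 7 changed sign under at least 1 setting. Where dim probe sets were left untested, 7453 remained, and the adjusted p was 0.0852 for Chrng 95639_at and 0.114 for Chrne 92967_r_at. Chrng 95639_at passed this filter through its wild-type brains, which gave 34.6 to 62.9, while the null brains had a median of 12.9, under the mark. For this probe set the filter thus depends on the difference tested, and 0.0852 is no separate reading of it. Of those 7453, 2 probe sets were called (0.0268%): Spg21 at -2.56 (adjusted p = 0.0017) and Pycrl at 1.42 (adjusted p = 0.0414), which gave -1.76 and 1.56 without the male null brains. Neither is a subunit.

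**Figure D5:**
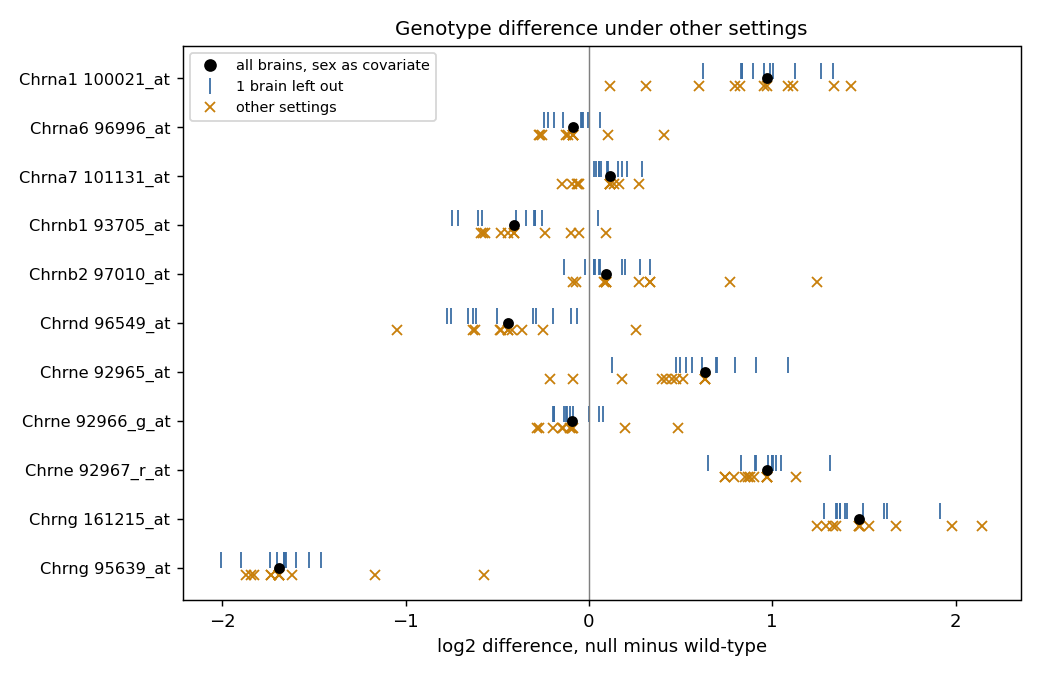
Log2 difference, null minus wild-type (x axis), of each subunit probe set with all brains (black), with 1 brain left out (blue ticks) and under other settings (orange crosses). The marks of Chrng 95639_at all lie below 0, from -2.01 to -0.57, and those of Chrng 161215_at all above 0.

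Probe sets whose log2 values ran most like those of the brighter members over the 9 brains without the male null were named from 6766 compared; the highest r of so many are selected values and are given as a description. In brackets are Pearson's r and Spearman's rho over the 9 brains, then r over all 11. The 9 brains hold both genotypes, so these values take in any genotype difference, and none was taken within a genotype. For Chrna7 they were Smim11 (0.96, 0.93, 0.26), Etf1, a translation termination factor (0.94, 0.97, 0.89), Btbd3 (0.93, 0.90, 0.71), Prpf19, a splicing factor (0.92, 0.93, 0.79), and Ube2d2a, a ubiquitin-conjugating enzyme (0.92, 0.93, 0.17). For Chrne 92967_r_at they were Tspyl4 (0.92, 0.97, -0.02), Actr6 (0.90, 0.97, 0.56), Glul, the glutamine synthetase of astrocytes (0.90, 0.48, 0.91), Rreb1 (0.90, 0.78, 0.55) and Pcna, the replication clamp (0.89, 0.70, 0.28). For Chrng 95639_at they were Ctrb1, a digestive protease (0.91, 0.82, 0.74), Pdlim4 (0.88, 0.73, 0.47), Tmem214 (0.88, 0.20, 0.51), Leng8 (0.87, 0.83, 0.12) and Ido1 (0.87, 0.88, 0.69). The rho of Tmem214 and Glul lay far under their r. Over all 11 brains the r of Smim11, Ube2d2a, Tspyl4, Pcna and Leng8 were under 0.3.

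Other genes of cholinergic transmission were read from 5 lists: of 64 genes 39 were measured, 25 with a mean at or above 25.8. By genotype 0 of the 39 passed in limma, with 13 at an unadjusted p under 0.05. At that p stood 16.9% of all probe sets and, in the fit with the filter, 1724 of 7453. By sex 0 of the 39 passed, with 10 at an unadjusted p under 0.05, beside 10.9% of all and 926 of those 7453. Values in brackets after a genotype difference of these lists are those without the male null brains. Among 7 genes of acetylcholine synthesis, storage and breakdown the median genotype difference was 0.24 (0.04). The choline transporter Slc44a1 was at -0.53 (-0.45), the esterase anchor Colq at -0.28 (-0.08), acetylcholinesterase Ache at 0.28 (-0.36) and choline kinase Chka at 0.47 (0.21). Of 2 muscarinic receptors, Chrm1 had 7.0 to 24.5 in wild-type, 16.1, 28.3 and 31.5 in female null and 147.5 and 159.7 in male null brains. Its difference of 1.99 (limma adjusted p = 0.20) was 0.43 without the male null brains. Chrm1 had a mean at or above 25.8, and so was named, only through the male null signals.

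Among 9 chaperones, prototoxins and partners of nicotinic receptors the median was 0.08 (-0.01). Ly6e, a prototoxin-family protein, was at -0.62 (-0.01), and Rer1, a retrieval factor that retains unassembled subunits, at -0.43 (-0.03), so both were near 0 without those 2 brains. The chaperone calnexin (Canx) was at 0.20 (-0.01) and Vsnl1, a calcium sensor, at 0.73 (0.29). Among 8 genes of neuromuscular junction assembly the median was 0.07 (-0.11). Rapsn, which clusters muscle receptors, was at 0.10 (-0.16), Dtna at 0.83 (0.12), Dmd at -0.27 (0.09) and Erbb3 at -0.37 (-0.39). Among 13 subunits of related pentameric channels it was 0.58 (0.10). The lowest were the serotonin-gated subunit Htr3a at -0.80 (-1.55) and Gabrb1 at -0.34 (-0.18). The highest were the glycine receptor subunit Glra1 at 0.69 (0.32) and Gabra2 at 1.64 (0.89). Gabra2 averaged 25.5 in wild-type brains, under 25.8, and gave 30.5 to 134.7 in null brains. It reached the mark, and so was named, only through the null signals. Over all probe sets the median without the male null brains was 0.03.

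The interaction was called for 7 of these 39 genes, beside 930 of all 12422 probe sets (7.49%). Of the 39 genes 25 had a mean at or above 25.8. The fit with the filter called more probe sets than these 930, out of only 7453 tested. The 7.49% is therefore no background for genes of this brightness, and no excess in these lists is read from it. Of the interaction calls over all probe sets 43.3% were above 0, but 69.6% with arrays centred on their median. The interaction uses the male null brains, with their low Gapdh ratios, as 1 of its 4 groups. Ly6e gave 3400, 3311, 2891 and 3180 in wild-type males and 1378 and 1470 in null males, but 3343 and 2777 in wild-type and 2938, 3364 and 2776 in null females. Only the null males were apart. Its interaction was 1.15 (limma adjusted p = 0.0085), and it was called in each of 11 fits that left out 1 brain. It was not called with the Gapdh ratio as a covariate, where it was 1.72 (limma adjusted p = 0.410), or with the B4 mice alone, where it was 1.09 (adjusted p = 0.0569). Those of Rer1 (0.76, adjusted p = 0.0333), Ache (-1.22, adjusted p = 0.0375) and Chrm1 (-2.96, adjusted p = 0.0461) were each called in 2 of 11 such fits.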

How the data were processed

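Whole-brain RNA of 11 mice was measured on 1 array each. Per the labels' protocols, TRI Reagent extraction was followed by an RNeasy column and an Enzo labelling kit. The authors deposited 1 linear intensity per probe set and array; per the submitters' processing notes MAS5 made them, and its version was not given in the sources used here. No further scaling was made, since all arrays shared a mean of 150.1 after trimming 2% from both ends. The number of arrays limits precision.

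Signals under the 10th percentile of the table (3.1) were raised to it and log2 values taken, so folds near the floor are understated. Fits used limma 3.58.1 in R 4.3.3 (lmFit, eBayes with a trend, Benjamini-Hochberg over 12422 probe sets after leaving out 66 controls, threshold 0.05) with no signal filter; the filter at the 40th percentile was an alternative. Single quantities used exact permutation tests in scipy 1.17.1, and correlations 100000 permutations.

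Of the probe sets, 10855 had 1 gene in the annotation table, 396 several and 1237 none; of 10833 in the fit with 1 gene, 10817 matched RefSeq by Entrez identifier. All member probe sets were named, with the 2 highest and 2 lowest genes at or above the filter in each list and the 5 probe sets most like each brighter member. The members and lists were chosen with earlier results of these data known. Of the region and cell type lists, those of skeletal muscle and brain neurons are given in the report and the rest among the other observations.

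In data simulated from these arrays with 200 of 12422 probe sets changed, the genotype fit called 30% of the 2-fold and 81% of the 4-fold changes, and 11 of its 122 calls were false. The sex fit recovered 30% and 72% (5 false of 107) and the interaction 5% and 26% (3 false of 34). With no change, each made 0 calls. The simulated noise was independent between probe sets and arrays. It held no shift of a whole array, such as could go with the low Gapdh ratios of the male null brains. These counts therefore do not measure how many calls in the real arrays are false. Alternatives were quantile and median scaling, other floors, the filter, no trend, other covariates, the number letters, the B4 mice alone, and leaving out the male null brains or 1 brain in turn.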

Additional observations from a re-analysis of the deposited data

Results flagged for a closer look

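Both values below stood far from the rest of their group by Dixon's test at the 95% level, with limits of 0.625 for 6 brains and 0.71 for 5. Over 26 groups tested, chance gives about 1 such value in 20 groups. Chrng 95639_at in null 5 was the highest of its group at 45.0, where the other null brains gave 9.1 to 14.9. The Gapdh 3′ to 5′ ratio of wild-type 4 was the highest of its group at 5.92, where the other wild-type brains gave 3.57 to 4.35.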

How the results depend on the processing

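No paired analysis was possible because the replicate numbers follow the order of deposit and pair no mice. No member was called by limma in any of the genotype, sex or interaction fits tried, at an adjusted p under 0.05. Over all probe sets the genotype count moved from 0 (2102 at an unadjusted p under 0.05) to 1 with a floor at the 5th percentile, 2 with the filter, 3 with no covariate and 5 with the B4 mice alone. It was 0 to 3 with 1 brain left out. The count for the sex difference, female minus male, of 3 became 0 with the filter (926 at an unadjusted p under 0.05 in limma) and 1 with age, with the Gapdh ratio or with the B4 mice alone, and 2 to 5 with 1 brain left out. The genotype by sex interaction count of 930 became 0 with the Gapdh ratio (1025 at an unadjusted p under 0.05 in limma) and 188 with the B4 mice, and 282 to 1038 with 1 brain left out; wild-type 5 (340), null 1 (415), null 2 (282), null 3 (578), null 4 (590) and null 5 (584) each moved it by over 1.5 times. The count of called pathway genes by genotype was 1 with the B4 mice alone. The r of Chrne 92965_at and 92966_g_at was -0.019 over all arrays.

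Signs of genotype differences turned as follows; the cause was not tested. With the Gapdh ratio as a covariate they were 0.41 for Chrna6, -0.091 for Chrna7, 0.091 for Chrnb1, 0.26 for Chrnd, -0.21 for Chrne 92965_at, 0.49 for Chrne 92966_g_at, -0.55 for Ache, 0.0084 for Ly6e, 0.075 for Rer1, 0.13 for Dmd, -0.46 for Rapsn and -0.052 for Dtna. Without the male null brains they were 0.11 for Chrna6, -0.14 for Chrna7, -0.084 for Chrne 92965_at, 0.20 for Chrne 92966_g_at, -0.36 for Ache, -0.011 for Canx, 0.094 for Dmd and -0.16 for Rapsn. Quantile normalization gave -0.059 for Chrna7, -0.071 for Chrnb2 and -0.063 for Rapsn, and centring on the array median -0.063, -0.085 and -0.0758. Chrna7 was at -0.055 with no covariate. Rapsn was at -0.45 with age, -0.21 with the number letters as a block and -0.13 with the B4 mice. With 1 brain left out the ranges were -0.25 to 0.061 for Chrna6, -0.74 to 0.052 for Chrnb1, -0.13 to 0.33 for Chrnb2, -0.20 to 0.075 for Chrne 92966_g_at, -0.55 to 0.087 for Colq and -0.12 to 0.23 for Rapsn.

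Sex differences turned for Chrna6 (0.13 with quantile normalization, 0.081 with median centring, 0.0149 with age), Chrnb2 (0.17, 0.15, and 0.19 with the B4 mice) and Chrne 92966_g_at (0.13, 0.14, and 0.085 with age). They turned for Chrne 92965_at (0.19 without the male null brains), Chrne 92967_r_at (0.082 with the B4 mice) and Chrng 95639_at (-0.19 with no covariate, -0.30 with the Gapdh ratio, -0.21 without the male null brains). With 1 brain left out they ran from -0.24 to 0.076 for Chrna6, -0.25 to 0.22 for Chrnb2, -0.18 to 0.12 for Chrne 92966_g_at, -0.72 to 0.023 for Chrne 92967_r_at and -0.063 to 0.49 for Chrng 95639_at. The interaction of Chrne 92967_r_at was 0.0903 with median centring, 0.87 with the Gapdh ratio and -1.05 to 0.80 with 1 brain left out, and that of Chrng 95639_at was -2.36 with the Gapdh ratio. Centring on the array median moved the median of all probe sets from 0.04 to -0.10 by genotype, from -0.05 to 0.10 by sex and from 0.0019 to 0.19 for the interaction. Of the interaction calls 43.3% were above 0 as reported and 69.6% with that centring. Mean signals of 3 of the 11 member probe sets were at or above 25.8, and dim signals limit the precision of the others.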

Other observations

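Regions and cell types that use nicotinic subunits were read from fixed lists, together with other brain cells and the pituitary. Of 81 genes over all region and cell type lists, 69 were measured and 0 passed by genotype or by sex in limma, with 16 and 10 at an unadjusted p under 0.05, beside 16.9% and 10.9% of all probe sets. For the interaction 10 were called, beside 7.49% of all probe sets. Of the 69 genes 54 had a mean at or above 25.8, and the fit with the filter called a larger share than 7.49%. That share of all probe sets is therefore no background for genes of this brightness, and no excess is read from it. The interaction uses the male null brains as 1 of its 4 groups. In the list of the medial habenula, a region where β4 is abundant, 5 of 11 genes were measured. Gpr151, Pou4f1, Chat and Gng8 were among those not measured. The signals are of whole brain, so values of this list are no reading of the habenula alone. Its median genotype difference was -0.17 (-0.04 without the male null brains). The neuropeptide Cck averaged 2065 ± 474 (SD, n = 6) over wild-type brains, against 1530 ± 134 (SD, n = 5) over null brains (-0.45, limma adjusted p = 0.212; -0.48 without the male null brains). Tac2 was at -0.18 (-0.17 without those brains), Calb2 at 0.54 (-0.04) and the nuclear receptor Nr4a2 at 0.97 (0.08). In the dopamine neuron list, whose cells use α6, 11 of 12 genes were measured with a median of 0.24 (-0.10). Tyrosine hydroxylase (Th) was at 0.43 (-0.13), En1 at -0.52 (-0.20) and En2 at -0.30 (0.16), so the signs of Th and En2 turned without the male null brains.

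Among neuronal genes Map2 was at 1.98 (0.55 without the male null brains), Syp at 0.90 (0.01), Snap25 at -0.09 (0.15) and Thy1 at -0.15 (-0.17), with a list median of 0.48 (-0.01). The astrocyte list had a median of 0.09 (0.00), that of oligodendrocytes 0.04 (-0.30), microglia 0.47 (-0.11), choroid plexus -0.19 (0.34) and pituitary 0.12 (0.26). The summed microglial signal was 815 to 1206 in wild-type brains, 919 to 1854 in all null brains and 1596 to 1854 in the male null brains. The summed choroid plexus signal was 982 to 1762 in wild-type, 664 to 1397 in all null and 664 to 922 in male null brains. Only 3 of its genes were measured, and Ttr alone gave 552 to 1616, so that sum mostly reads Ttr. By genotype Ttr was at -0.36 (0.29 without the male null brains), Kl at -0.19 (0.34) and Folr1 at 1.13 (1.04). For both sums the ranges of all null and wild-type brains overlapped.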
